A study of Mus musculus with 2 samples.

Results

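The genes described here are 10 nuclear receptors other than the thyroid hormone receptors, measured cell by cell in the mouse retina at E14.5, when cones, retinal ganglion cells (RGCs) and horizontal cells are being born. They were taken by symbol, *Rorb*, *Rora*, *Nr2f1*, *Nr2f2*, *Nr2f6*, *Nr6a1*, *Nr0b1*, *Nr2e1*, *Rara* and *Rarb*, and all 10 were found among the 28692 genes listed in both count matrices. Each symbol belonged to 1 gene. The cells came from embryos heterozygous for a bacterial artificial chromosome in which *Lhx4* sequence drives GFP (*LHX4::GFP*). The mouse line is Tg(Lhx4::EGFP)KN199Gsat/Mmucd. Retinal tissue from 2 litters was dissociated as 1 pool, sorted by flow cytometry into GFP+ and GFP- cells, and each gate became 1 droplet library. Both libraries carry the transgene, and the GFP- cells are the comparison. The reporter marks early cones, so that the GFP gate stands for cones only as far as *Lhx4* sequence is active in them.

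Nuclear receptors are transcription factors whose ligand-binding domain can couple a small molecule, such as a hormone, a vitamin derivative or a lipid, to the transcription of target genes. *Rorb* and *Rora* encode retinoid-related orphan receptors, *Nr2f1*, *Nr2f2* and *Nr2f6* the COUP-TF family, *Rara* and *Rarb* receptors for retinoic acid, and *Nr2e1*, *Nr6a1* and *Nr0b1* orphan receptors, of which *Nr0b1* lacks the usual DNA-binding domain. In the retina, *Rorb* is needed for photoreceptor and amacrine cell development, the COUP-TFs act in dorsoventral patterning and in amacrine and cone subtypes, and *Nr2e1* (Tlx) keeps progenitors proliferating.

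Levels are given as CPM, UMIs of a gene per 1000000 UMIs, where a UMI is a tag that marks each captured transcript, so that PCR copies count once. They were summed over the cells of a gate or group and carry 95% exact Poisson intervals. Ratios of CPM carry 95% exact intervals of the same counts. A gene was called higher or lower where the ratio reached 2 or fell to 0.5, among genes with at least 20 UMIs over both groups. There is 1 library a gate, hence no replicate and no test, and the intervals hold the counting error alone. Cells with 250 to 3500 genes were kept, which left 3689 GFP+ cells (median 3894 UMIs) and 3391 GFP- cells (median 8853 UMIs). The upper limit removed 39 GFP+ and 1053 GFP- cells, 549 of the latter RGCs by the rule below, and 20 barcodes were shared between the libraries. The droplet assay reads transcripts near their 3' end, so isoforms of a receptor were not separated and levels are not compared between genes.

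Cells were placed by UMIs of marker genes, and the group names stand for those rules. Of the kept GFP+ cells 3597 (97.5%) met the rule for cones. The GFP- cells held 65 cones, 79 cells with *Otx2* and *Crx* only, 759 retinal progenitor cells (RPCs) with mitotic transcripts, 893 other RPCs, 788 neurogenic cells (*Neurog2*, *Olig2* or *Atoh7*), 153 RGC precursors with *Pou4f2*, 294 RGCs and 147 amacrine cells (ACs). A further 16 cells met the AC rule with *Lhx1*, a horizontal cell (HC) gene. These were too few to be described alone and were read only together with the ACs, as AC/HCs. A remainder of 129 GFP- cells met more than 1 rule, and 128 of them met the AC/HC and RGC rules together. Further marker genes were checked, none of which set a group except *Otx2* and *Crx* of the cone list. The cone, RPC, neurogenic, RGC and AC/HC lists each had their highest sum in the group of that name, counting the cells of more than 1 rule with the AC/HCs. The GFP+ cones had 3118 CPM over *Otx2*, *Crx*, *Prdm1*, *Lhx4*, *Gnat2*, *Aipl1* and *Rd3*, of which *Otx2* made 1522 CPM and *Crx* 843 CPM. *Otx2*/*Crx* cells had 1678 CPM, neurogenic cells 268 CPM and the other RPCs, the lowest group, 8.16 CPM. Cells with both *Otx2* and *Crx* were kept out of the neurogenic and RPC groups by rule, which in part sets the low values there. Of the lists for other cell types, the endothelial pair was at 398 CPM in ACs, 249 CPM in the cells of more than 1 rule, 134 CPM in the cells of no rule and under 10 CPM elsewhere. Nearly all of it in ACs was *Cldn5* (395 CPM, in 59.9% of ACs), while *Pecam1* was at 2.92 CPM (3 UMIs). The microglia list was highest in the cells of no rule, at 412 CPM. In GFP+ cones only its gene *C1qa* was found, at 27.2 CPM in 9.54% of the cells. The rod list was highest in GFP+ cones at 32.9 CPM, of which *Nrl* made 31.6 CPM. The red blood cell, lens and pigment epithelium lists stayed under 10 CPM in every group. Of the RGCs 61 also met the RPC rule, which bears on *Nr2e1* below.

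On GRCm38 *Rorb* lies on chromosome 19 from 18930605 to 19111196, *Rora* on chromosome 9 from 68653786 to 69388246, *Nr2f1* on chromosome 13 from 78188973 to 78199757 and *Nr2f2* on chromosome 7 from 70351944 to 70366735. *Nr2f6* lies on chromosome 8 from 71374123 to 71381960, *Nr6a1* on chromosome 2 from 38723370 to 38927688 and *Nr0b1* on chromosome X from 86191764 to 86195947. *Nr2e1* lies on chromosome 10 from 42561963 to 42583632, *Rara* on chromosome 11 from 98927818 to 98974942 and *Rarb* on chromosome 14 from 16430839 to 16819156. None overlaps another listed gene on its own strand. *Rora*, *Nr2f1*, *Nr2f6*, *Nr6a1* and *Rarb* overlap a gene on the other strand, and the sources used here do not state whether strand was used in the counting.

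Promoters of *Rarb*, *Nr6a1* and *Nr0b1* are shown because these members had differences of over 10-fold between progenitors and cones, and because their windows hold letters that nuclear receptors are known to bind. All 10 members matched the RefSeq promoter table (GRCm38.p6), with 16 windows of 300 bases between them. Capitals mark 2 searched motifs, read on both strands. The first is a fixed spelling of a retinoic acid response element, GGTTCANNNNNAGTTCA, in which N is any base. The second is the receptor core motif AGGTCA, which reads TGACCT on the other strand. Each sequence is the 250 bases before the annotated start, chr14:16575477-16575726 on the minus strand for *Rarb*, chr2:38784516-38784765 on the minus strand for the more 3' of the starts of *Nr6a1*, and chrX:86191525-86191774 on the plus strand for *Nr0b1*.
Rarb: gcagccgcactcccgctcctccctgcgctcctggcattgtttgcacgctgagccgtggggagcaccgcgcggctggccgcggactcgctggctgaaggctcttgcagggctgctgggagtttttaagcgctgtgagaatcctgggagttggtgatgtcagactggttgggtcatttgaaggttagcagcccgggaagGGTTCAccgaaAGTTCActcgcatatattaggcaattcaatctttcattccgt
Nr6a1: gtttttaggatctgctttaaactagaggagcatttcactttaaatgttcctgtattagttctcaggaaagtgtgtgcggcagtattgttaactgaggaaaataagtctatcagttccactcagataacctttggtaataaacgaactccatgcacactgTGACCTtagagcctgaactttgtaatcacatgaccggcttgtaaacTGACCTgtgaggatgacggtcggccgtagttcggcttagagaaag
Nr0b1: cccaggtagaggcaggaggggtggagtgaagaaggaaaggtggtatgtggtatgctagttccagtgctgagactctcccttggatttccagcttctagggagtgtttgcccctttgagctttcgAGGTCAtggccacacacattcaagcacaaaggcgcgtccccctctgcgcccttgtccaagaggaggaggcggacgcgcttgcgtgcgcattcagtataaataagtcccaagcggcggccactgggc
The response element in this spelling was found in 2 of 32851 promoter windows (0.00609%), 1 of them that of *Rarb*, where it begins 53 bases before the start. The spelling searched is that of the *Rarb* window itself, and other spellings were not searched. Its presence there and its rarity are therefore not read as a result. The core motif was found in 16.3% of all windows. It was present at 2 places in that *Nr6a1* window, but not in the other *Nr6a1* window, and at 1 place in the *Nr0b1* window. After the start it was at 1 place in 1 of the 4 *Rara* windows, and it was in none of the other members' windows. The motif of *Otx2* and *Crx*, GGATTA, was in 7.06% of all windows and, among the members, in that of *Nr2f2* alone.

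The question of the sort was which genes mark early cones against the other cells of the retina. Between the gates 2 of the 10 members were higher in GFP+ cells, *Rora* and *Nr6a1*, and 4 were lower, *Nr2f1*, *Nr0b1*, *Nr2e1* and *Rarb*. Over all 14170 genes that entered, 22.4% were higher and 15.5% lower by the same rule. The median log2 ratio of the members was -0.49, against 0.30 over all genes. *Nr6a1* was at 24.7 CPM in the GFP+ library (383 UMIs) and 1.43 CPM in the GFP- library (43 UMIs), a ratio of 17.3 (12.6 to 24.3). *Rora* was at 129.97 and 24.2 CPM, a ratio of 5.38 (4.94 to 5.86). Both were on the cone side by more than counting error, and with cells thinned to 3200 UMIs *Nr6a1* was at 11.3. Thinning here and below left out cells with fewer UMIs, which were 579 GFP+ and 28 GFP- cells. In sums over a gate, fewer cells of a type and less RNA per cell cannot be told apart.

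Of the 4 lower members, *Nr2f1* stood at 30.2 against 112 CPM in the GFP- library, 3.72-fold lower (3.38 to 4.11). *Nr2e1* was at 3.03 and 66.6 CPM, 22.0-fold lower (16.4 to 30.0), or at 0.0711 in place of 0.0455 of the GFP- level without the upper limit on genes. *Nr0b1* was at 0.323 CPM (5 UMIs) and 8.80 CPM (265 UMIs), 27.3-fold lower (11.5 to 84.7). *Rarb* was at 0.452 CPM (7 UMIs) and 4.15 CPM (125 UMIs), 9.19-fold lower (4.33 to 23.3). The last 2 were low in both libraries, so their intervals are wide. *Rorb*, *Nr2f2*, *Nr2f6* and *Rara* were not called, with ratios of 0.860 (0.840 to 0.880), 1.01 (0.909 to 1.13), 0.586 (0.542 to 0.633) and 1.02 (0.904 to 1.14). Scaled by TMM factors, all ratios were lower by 0.33 on the log2 scale. *Nr2f6* was then called lower at 0.467, and *Rorb*, *Nr2f2* and *Rara* lay at 0.685, 0.807 and 0.811. The share of higher genes among all calls went from 59.1% to 43.1%. *Rorb* was at 0.798 with thinned cells and at 0.988 without the upper limit on genes.

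**Figure D1:**
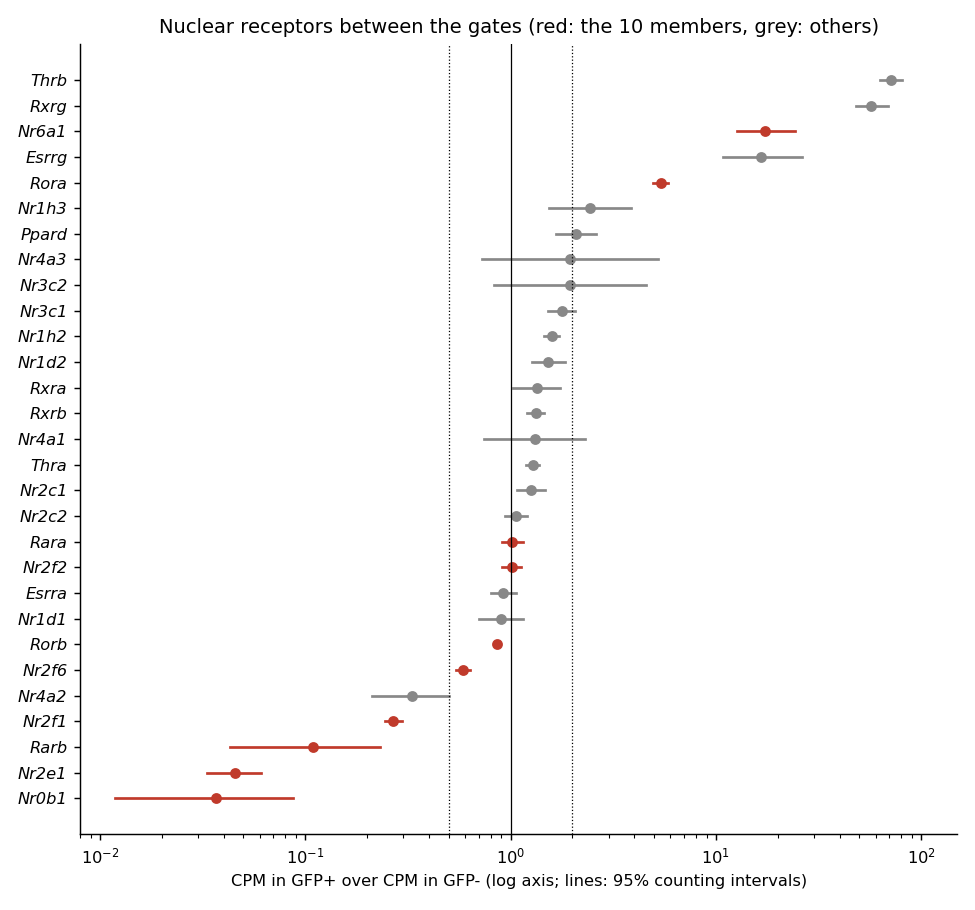
CPM in the GFP+ library over CPM in the GFP- library for the 10 members (red) and 19 other nuclear receptors that entered (grey), on a log axis with 95% counting intervals as lines and dotted lines at 0.5 and 2. *Nr6a1* (17.3) and *Rora* (5.38) lie on the GFP+ side with *Thrb* (71.1) and *Rxrg* (57.1), and *Nr0b1*, *Nr2e1*, *Rarb* and *Nr2f1* lie at the GFP- end.

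The gates mix cell types, so the members were read next by cell group. *Rorb*, which was not called between the gates, was far from even among the groups. It was at 1511 CPM in ACs (1436 to 1588), 1275 CPM in *Otx2*/*Crx* cells (1184 to 1371), 1055 CPM in neurogenic cells (1031 to 1080) and 1047 CPM in GFP- cones (943 to 1160). The other RPCs had 712 CPM (693 to 731), GFP+ cones 640 CPM (627 to 653), mitotic RPCs 584 CPM (566 to 601), RGC precursors 456 CPM (422 to 492) and RGCs 282 CPM (264 to 301). In this order the neurogenic cells and the GFP- cones overlapped in their intervals, and no other neighbours did. ACs thus had the most *Rorb* and RGCs the least, and the *Otx2*/*Crx* cells and GFP- cones had more than the GFP+ cones.

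*Rora* had the cone lineage at the top. It was at 133 CPM in GFP+ cones (128 to 139), 90.6 CPM in GFP- cones (62.0 to 128), 42.1 CPM in *Otx2*/*Crx* cells (27.0 to 62.6) and 32.9 CPM in neurogenic cells (28.7 to 37.6). Other RPCs had 24.6 CPM and mitotic RPCs 21.7 CPM, and RGCs, ACs and RGC precursors had 14.7, 11.7 and 7.54 CPM. The intervals of the first 4 groups overlapped from neighbour to neighbour, and those of neurogenic cells and other RPCs did not. Within the neurogenic cells, the 176 with an *Olig2* UMI, a gene of progenitors that give cones and horizontal cells, had 47.8 CPM (37.5 to 60.2), and the 376 with *Atoh7* but no *Olig2* had 27.5 CPM (22.0 to 34.0).

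**Figure D2:**
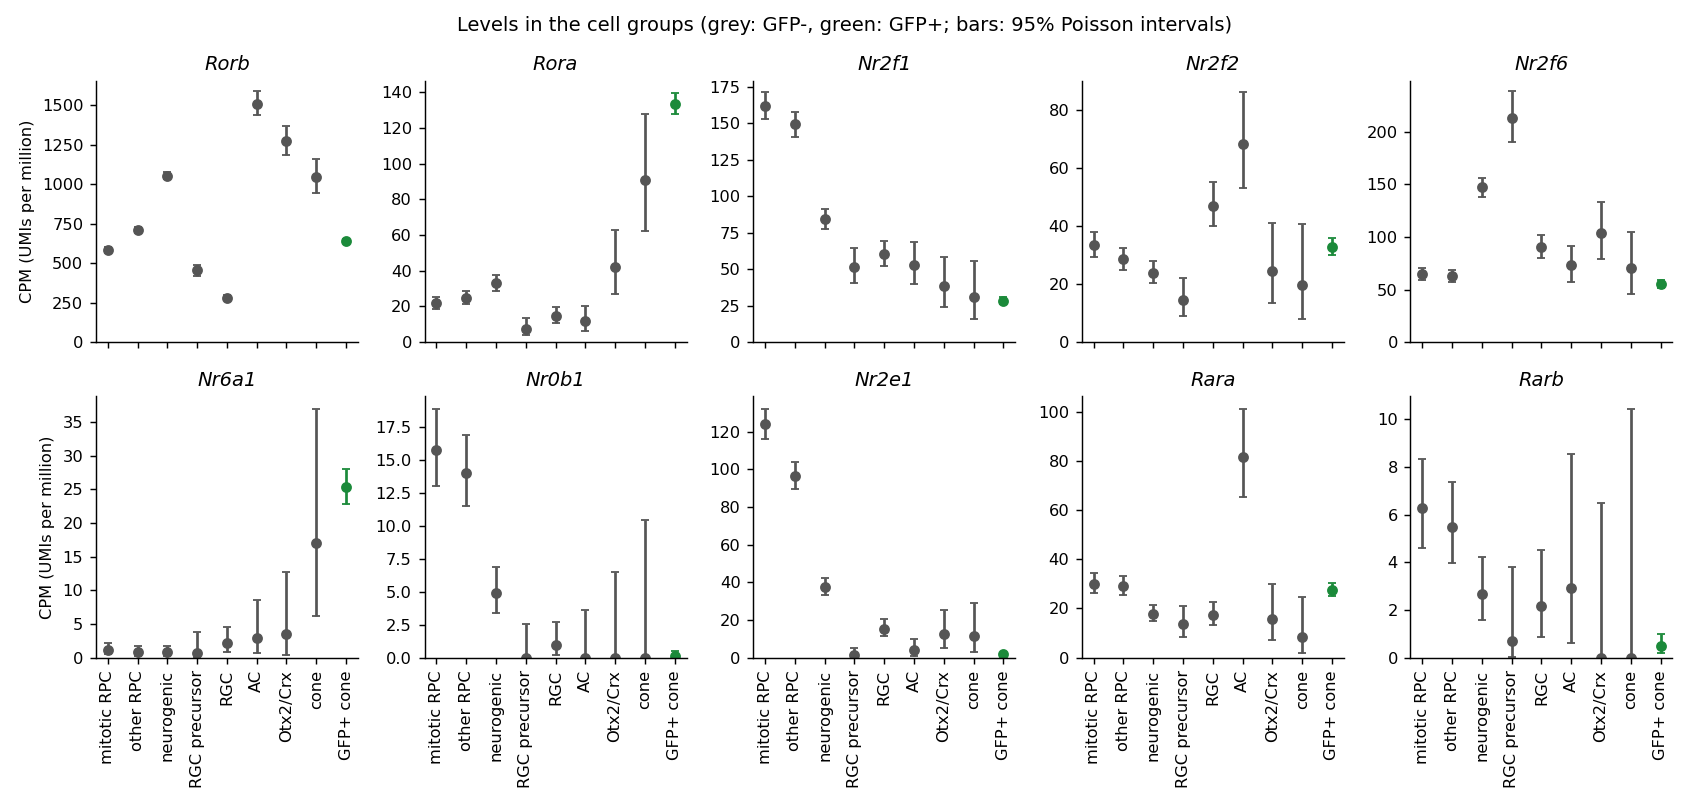
CPM of each member in 8 groups of GFP- cells (grey) and in GFP+ cones (green), with 95% Poisson intervals and a separate linear axis from 0 for each gene. *Rora* and *Nr6a1* are highest in cones, *Nr2f1*, *Nr2e1*, *Nr0b1* and *Rarb* in RPCs, *Nr2f6* in RGC precursors, and *Rorb*, *Nr2f2* and *Rara* in ACs.

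The COUP-TF genes each had their own order. *Nr2f1* was at 162 CPM in mitotic RPCs (153 to 171) and 149 CPM in other RPCs (141 to 158), and then at 84.2 CPM in neurogenic cells (77.4 to 91.5). RGCs, ACs and RGC precursors had 60.5, 52.6 and 51.4 CPM, *Otx2*/*Crx* cells 38.6 CPM, GFP- cones 31.1 CPM and GFP+ cones 28.4 CPM (25.8 to 31.3). The step from RPCs to neurogenic cells and that from neurogenic cells to RGCs exceeded counting error, and from RGCs on neighbouring groups overlapped. Among neurogenic cells, the 515 that still met the RPC rule had 101 CPM (92.2 to 111) and the 273 that did not had 47.8 CPM (39.0 to 58.1).

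*Nr2f2*, the other COUP-TF with a known part in amacrine cells, was at 68.2 CPM in ACs (53.1 to 86.1) and 47.1 CPM in RGCs (39.9 to 55.2), and these overlapped. The remaining 7 groups lay between 14.4 CPM in RGC precursors and 33.4 CPM in mitotic RPCs, with GFP+ cones at 32.7 CPM (29.9 to 35.7), and their neighbours overlapped throughout. *Nr2f6* (EAR2) was highest in RGC precursors, followed by neurogenic cells. RGC precursors had 214 CPM (191 to 239), neurogenic cells 147 CPM (138 to 157), *Otx2*/*Crx* cells 103 CPM (78.8 to 133) and RGCs 90.5 CPM (80.3 to 101). ACs, GFP- cones, mitotic RPCs, other RPCs and GFP+ cones followed at 73.0, 70.8, 64.4, 62.9 and 54.9 CPM. The first 3 were separated from each other by more than counting error. Neurogenic cells that met the RPC rule and those that did not overlapped, at 147 CPM (136 to 158) and 148 CPM (132 to 165).

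*Nr6a1* (GCNF) had the narrowest cone pattern. It was at 25.3 CPM in GFP+ cones (378 UMIs, 22.8 to 28.0) and 17.0 CPM in GFP- cones (6 UMIs, 6.23 to 37.0). In *Otx2*/*Crx* cells it was at 3.51 CPM from 2 UMIs (0.425 to 12.7). All other groups were at 2.92 CPM or less, from 8 UMIs or fewer each, and their intervals overlapped. A *Nr6a1* UMI was found in 9.54% of the GFP+ cones (8.60 to 10.5%), which had a median of 3880 UMIs, and in 0.672% of the other RPCs (0.247 to 1.46%), which had a median of 8781. With cells thinned to 3200 UMIs these shares were 7.57% and 0.678%, after 559 cones and 8 other RPCs with fewer UMIs were left out. By raw shares, *Rora* and *Nr6a1* UMIs were not found together more or less often in GFP+ cones. *Nr6a1* had a UMI in 9.53% of the 1458 cones with *Rora* and in 9.54% of those without it. The cells were not matched for depth, so these shares do not settle whether the 2 genes go together in single cones.

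*Nr2e1* and *Nr0b1* were progenitor genes by level. *Nr2e1* was at 124 CPM in mitotic RPCs (116 to 132), 96.4 CPM in other RPCs (89.7 to 104) and 37.4 CPM in neurogenic cells (32.9 to 42.3), all apart by more than counting error. It was at 15.3 CPM in RGCs, 12.3 CPM in *Otx2*/*Crx* cells, 11.3 CPM in GFP- cones (4 UMIs), 3.90 CPM in ACs (4 UMIs), 1.81 CPM in GFP+ cones and 1.37 CPM in RGC precursors (2 UMIs). The RGC value came mostly from cells that also met the RPC rule. The 61 such RGCs had 63.9 CPM (46.2 to 86.1) and the other 233 had 2.37 CPM (0.869 to 5.16). *Nr0b1* (DAX1) was at 15.8 CPM in mitotic RPCs (13.1 to 18.9), 14.0 CPM in other RPCs (11.5 to 16.9) and 4.92 CPM in neurogenic cells (3.39 to 6.91). It had 3 UMIs in RGCs, all of them in cells that met the RPC rule, 2 UMIs in GFP+ cones, and 0 UMIs in ACs, RGC precursors, *Otx2*/*Crx* cells and GFP- cones. At 0 UMIs, 3 counts allow up to 2.92 CPM in ACs, 2.06 CPM in RGC precursors, 5.26 CPM in *Otx2*/*Crx* cells and 8.49 CPM in GFP- cones, all under the RPC level, and under the neurogenic level in the first 2 only.

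The retinoic acid receptors differed from each other. *Rara* was at 81.8 CPM in ACs (65.3 to 101), apart from every other group in the order. The 129 cells of more than 1 rule overlapped the ACs, at 70.5 CPM (54.0 to 90.3). Mitotic RPCs had 30.1 CPM, other RPCs 29.1 CPM and GFP+ cones 27.7 CPM (25.1 to 30.5), and the remaining 5 groups lay between 8.49 and 17.9 CPM. *Rara* had few UMIs in the neurogenic cells with *Olig2*, at 3.93 CPM (6 UMIs, 1.44 to 8.56), against 19.2 CPM (14.6 to 24.7) in those with *Atoh7* and no *Olig2*. *Rarb* was low everywhere, with 6.28 CPM in mitotic RPCs (4.62 to 8.36), 5.48 CPM in other RPCs (3.97 to 7.39), 2.68 CPM in neurogenic cells (1.59 to 4.24) and 0.469 CPM in GFP+ cones (0.189 to 0.967). Over the 9 groups all neighbours in order overlapped, while the RPCs and the GFP+ cones did not.

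Against all 1652 RPCs, neurogenic cells had 1 member higher and 3 lower, where 4.8% and 6.15% of all 12471 genes were called. The higher one was *Nr2f6* at 2.31-fold (2.11 to 2.53), and *Nr0b1*, *Nr2e1* and *Rarb* were 3.02-fold (2.09 to 4.50), 2.93-fold (2.57 to 3.36) and 2.19-fold (1.31 to 3.86) lower. With thinned cells *Rarb* was at 0.540 in place of 0.457 of the RPC level and was not called. *Rorb* was 1.63-fold higher (1.58 to 1.68) and *Nr2f1* 1.84-fold lower (1.68 to 2.03), short of the size rule but beyond counting error. At 1.5-fold both were called, as was *Rara*, which made 7 members. The share of all genes called at 1.5-fold is not reported here, so that count is not read as a result about the members.

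In RGCs 1 member was called higher and 5 lower, where 15.5% and 20.5% of 12416 genes were. *Rorb* was 2.31-fold lower (2.15 to 2.47), *Nr2f1* 2.57-fold (2.22 to 2.99), *Nr2e1* 7.18-fold (5.41 to 9.75), *Nr0b1* 15.9-fold (5.37 to 77.7, 3 UMIs in RGCs) and *Rarb* 2.69-fold (1.25 to 6.88, 7 UMIs). With thinned cells *Rarb* was at 0.638 in place of 0.372 of the RPC level and was not called. The member called higher, *Nr6a1* at 2.39-fold, rested on 7 and 14 UMIs, and its interval (0.816 to 6.33) held 1. Without the RGCs that met the RPC rule, *Nr2e1* was at 0.0216 of the RPC level in place of 0.139, and *Rarb* at 0.134 in place of 0.372. Without the upper limit on genes, which brings back 549 RGCs, *Rorb* was at 0.505 and *Nr6a1* at 1.96, and neither was called.

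In AC/HCs 3 members were higher and 5 lower, where 16.6% and 21.8% of 12135 genes were. *Rorb* was 2.25-fold higher (2.13 to 2.37), *Nr2f2* 2.14-fold (1.65 to 2.73, or 1.95 with thinned cells) and *Rara* 2.75-fold (2.17 to 3.44). *Cldn5*, a tight junction gene on the endothelial list, was higher in these cells too, and its part in the members' values was not tested. *Nr2f1* was 3.20-fold lower (2.45 to 4.26) and *Nr2e1* 24.9-fold lower (10.6 to 76.7). *Nr0b1*, at 0 UMIs, was lower by at least 4.53-fold by its interval, or by 5.62-fold where 3 counts over the group are taken. *Rora* was at 0.495 of the RPC level (0.261 to 0.858) and *Rarb*, from 3 UMIs, at 0.451 (0.0912 to 1.36). Adding the 128 cells that met the AC/HC and RGC rules gave 1.99-fold for *Rorb*, 0.730 for *Rora* and 0.678 for *Rarb*, all short of the rule, and without the upper limit on genes *Nr2e1* was at 0.105 in place of 0.0402. Taken with those cells, *Rorb* was at 885 CPM (788 to 990) in the 51 AC/HC cells with *Lhx1* and at 1380 CPM (1324 to 1437) in the 240 without it, and *Rara* was at 43.7 CPM (24.4 to 72.0) and 83.5 CPM (70.2 to 98.5).

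GFP+ cones had 2 members higher than RPCs and 4 lower, where 28.6% and 15% of 13505 genes were. *Nr6a1* was 27.7-fold higher (16.3 to 51.2) and *Rora* 5.76-fold (5.14 to 6.47). *Nr2f1* was 5.47-fold lower (4.93 to 6.08), *Nr2e1* 60.7-fold lower (41.5 to 92.3) and *Rarb* 12.5-fold lower (5.83 to 32.0), and *Nr0b1* was at 0.00901 of the RPC level (0.00108 to 0.0329) from 2 UMIs in cones. With thinned cells *Nr6a1* was at 16.9 and *Nr0b1* at 0.0154, and without the upper limit on genes *Nr2e1* was at 0.0291 in place of 0.0165 and *Nr0b1* at 0.0162. *Rorb*, *Nr2f2*, *Nr2f6* and *Rara* were at 0.986, 1.06, 0.863 and 0.936 of it. The median log2 ratio of all genes was 0.41 here. With ratios divided by that median *Rorb*, *Nr2f2* and *Rara* came to 0.742, 0.796 and 0.705. *Nr2f6* was then the lowest of these uncalled members, at -0.62 on the log2 scale. Of all calls 48.2% in place of 65.6% were higher. The cones came from the other library, so cell group and library cannot be told apart in this comparison. The 65 GFP- cones, read in the same library as the RPCs, had *Rora* at 90.6 CPM against 23.2 CPM in RPCs and *Nr6a1* at 17.0 against 0.914 CPM. *Nr2f1* was at 31.1 against 155 CPM in them, and *Nr2e1*, from 4 UMIs, at 11.3 (3.08 to 29.0) against 110 CPM, on the same side as in GFP+ cones. *Rorb* and *Rara* stood otherwise than in GFP+ cones. *Rorb* was at 1047 (943 to 1160) against 649 CPM in RPCs, and *Rara*, from 3 UMIs, at 8.49 (1.75 to 24.8) against 29.6 CPM. *Nr2f2* and *Nr2f6* were at 19.8 (7.97 to 40.8) against 30.9 CPM and at 70.8 (45.8 to 104) against 63.6 CPM. These intervals held both the RPC level and the GFP+ cone level. *Nr0b1* and *Rarb* had 0 UMIs, where 3 counts would be 8.49 CPM and the interval reaches 10.4 CPM, against 14.9 and 5.87 CPM in RPCs.

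**Figure D3:**
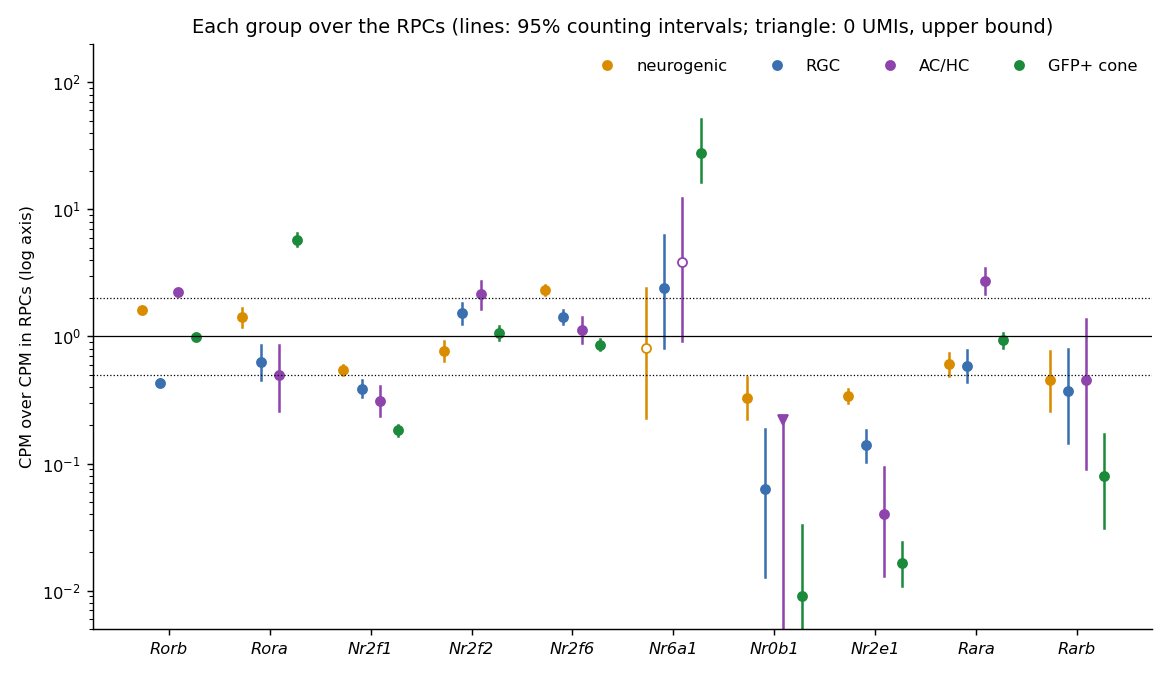
CPM of each member in neurogenic cells, RGCs, AC/HCs and GFP+ cones over its CPM in the 1652 GFP- RPCs, on a log axis with 95% counting intervals as lines, cut at the lower edge of the plot. Open points have under 20 UMIs over both groups and the triangle marks 0 UMIs of *Nr0b1* in AC/HCs, drawn at its upper bound. *Nr2f1*, *Nr0b1*, *Nr2e1* and *Rarb* lie below 1 in all 4 groups, while *Rorb* is at 2.25 in AC/HCs and 0.434 in RGCs.

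Within the RPCs, mitotic against other cells, none of the 9 members that entered was called in either direction, where 2.82% of 11871 genes were higher and 2.25% lower. The widest ratios were those of *Nr2e1*, 1.28-fold higher in mitotic RPCs (1.16 to 1.41), and *Rorb*, 1.22-fold higher in the other RPCs (1.17 to 1.27). The ratios of *Nr2f1*, *Nr2f2*, *Nr2f6*, *Nr0b1*, *Rara* and *Rarb* lay between 1.02 and 1.17, and that of *Rora* at 0.880 (0.709 to 1.09). A *Nr2e1* UMI was found in 63.1% of the 1123 RPCs with *Nr2f1* and in 54.1% of those without it, at unequal depths of the cells.

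The retina is patterned from dorsal to ventral, with retinoic acid made at both poles. Progenitors, here RPCs and neurogenic cells, were called dorsal where they had a UMI of *Tbx5*, *Tbx3*, *Tbx2* or *Aldh1a1* and none of *Vax2*, *Vax1* or *Aldh1a3*, and ventral in the reverse case. This gave 798 dorsal and 731 ventral cells of 2440, of which 31.6% and 26.9% were neurogenic. Dorsally 2 of the 9 members that entered were higher and 0 lower, where 1.48% and 0.933% of 11791 genes were. *Nr2f2* was at 53.9 CPM in dorsal cells (388 UMIs) and 8.32 CPM in ventral cells (57 UMIs), a ratio of 6.48 (4.89 to 8.71). *Rarb* was at 7.78 CPM (56 UMIs) and 3.36 CPM (23 UMIs), a ratio of 2.32 (1.4 to 3.94). *Nr2f1* went the other way at 97.2 and 176 CPM, 1.81-fold higher in ventral cells (1.65 to 1.99), and *Rora* was 1.77-fold higher in dorsal cells (1.42 to 2.21), both short of the rule. *Rorb*, *Nr2f6*, *Nr2e1*, *Rara* and *Nr0b1* lay between 0.772 and 1.06.

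Each stage was also read apart. In RPCs alone *Nr2f2* was at 57.0 and 8.43 CPM, a ratio of 6.76 (4.89 to 9.54), and in neurogenic cells at 46.7 and 8.01 CPM, a ratio of 5.83 (3.32 to 11.1). *Nr2f1* was 1.80-fold higher ventrally in RPCs (1.62 to 2.00) and 1.64-fold in neurogenic cells (1.32 to 2.05). *Rora* was 1.56-fold higher dorsally in RPCs (1.19 to 2.04) and 2.24-fold in neurogenic cells (1.5 to 3.41), where it passed the 2-fold rule. *Rarb* was 2.23-fold higher in RPCs (1.29 to 3.99), and in neurogenic cells it had 12 and 3 UMIs, too few to enter, with a ratio whose interval held 1 (0.873 to 17.9). A *Nr2f2* UMI was found in 34.1% of dorsal and 6.74% of ventral RPCs, and a *Nr2f1* UMI in 58.2% and 80.0%. *Nr2f1* and *Nr2f2* were thus higher on opposite sides. Over all RPCs a *Nr2f2* UMI was found in 19.1% of the cells with *Nr2f1* and in 20.4% of those without it, with cells not matched for depth. With *Tbx5* alone set against *Vax2* alone, *Nr2f2* was at 9.46, *Rarb* at 4.86, *Rara* at 1.61 and *Nr2e1* at 1.52. Without the upper limit on genes 1 member was called, since *Rarb* came to 1.90.

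Of the GFP+ cones 638 were dorsal and 371 ventral by the same genes, and 70.2% had a UMI of neither list. There 1 of the 7 members that entered was higher dorsally and 0 lower, where 1.77% and 1.06% of 10253 genes were. *Nr2f2* was at 43.5 CPM (123 UMIs) and 15.0 CPM (25 UMIs), a ratio of 2.90 (1.88 to 4.66), whose interval does not reach that of all progenitors but overlaps that of the neurogenic cells. The cones were shallower, with medians of 4059.5 and 4164 UMIs against 8880 and 9447. *Nr2f1* was at 22.6 and 32.4 CPM, a ratio of 0.699 (0.479 to 1.02) that held 1. *Rora*, *Nr6a1* and *Rara* were at 1.05 (0.880 to 1.25), 1.01 (0.675 to 1.52) and 1.06 (0.711 to 1.60).

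**Figure D4:**
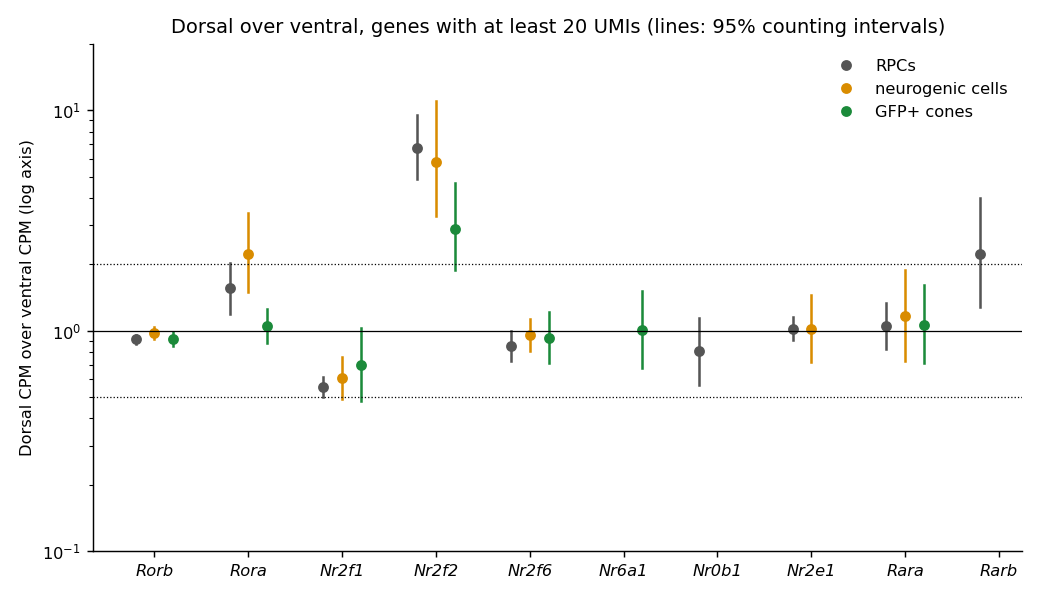
Dorsal over ventral CPM of the members in RPCs (grey), neurogenic cells (orange) and GFP+ cones (green), on a log axis with 95% counting intervals, for genes with at least 20 UMIs over both sides. *Nr2f2* lies above 2 in all 3 groups (6.76, 5.83 and 2.90), *Nr2f1* below 1, and *Rorb*, *Nr2f6*, *Nr2e1* and *Rara* near 1.

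Within the GFP+ cones the members were read by maturity and by subset. Cones were divided into 3 equal sets by their UMIs of *Gngt2*, *Gnb3* and *Pdc*, phototransduction genes that come on as cones mature, per UMI of the cell. The set is a range and not a type, and 411 and 573 of the 3597 cones lay within 10% of its bounds. *Rorb* was at 709 CPM (687 to 732), 629 CPM (607 to 652) and 567 CPM (546 to 589) from the lowest to the highest set. *Rora* was at 112 CPM (103 to 121), 146 CPM (135 to 157) and 146 CPM (135 to 158). *Nr2e1* was at 3.45 CPM (19 UMIs), 1.24 CPM (6 UMIs) and 0.439 CPM (2 UMIs). Cones with the fewest phototransduction UMIs thus had more *Rorb*, less *Rora* and more of the few *Nr2e1* UMIs. *Nr6a1* was at 24.1, 27.8 and 24.2 CPM, with overlapping intervals, and the intervals also overlapped for *Nr2f1*, *Nr2f2*, *Nr2f6* and *Rara*.

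**Figure D5:**
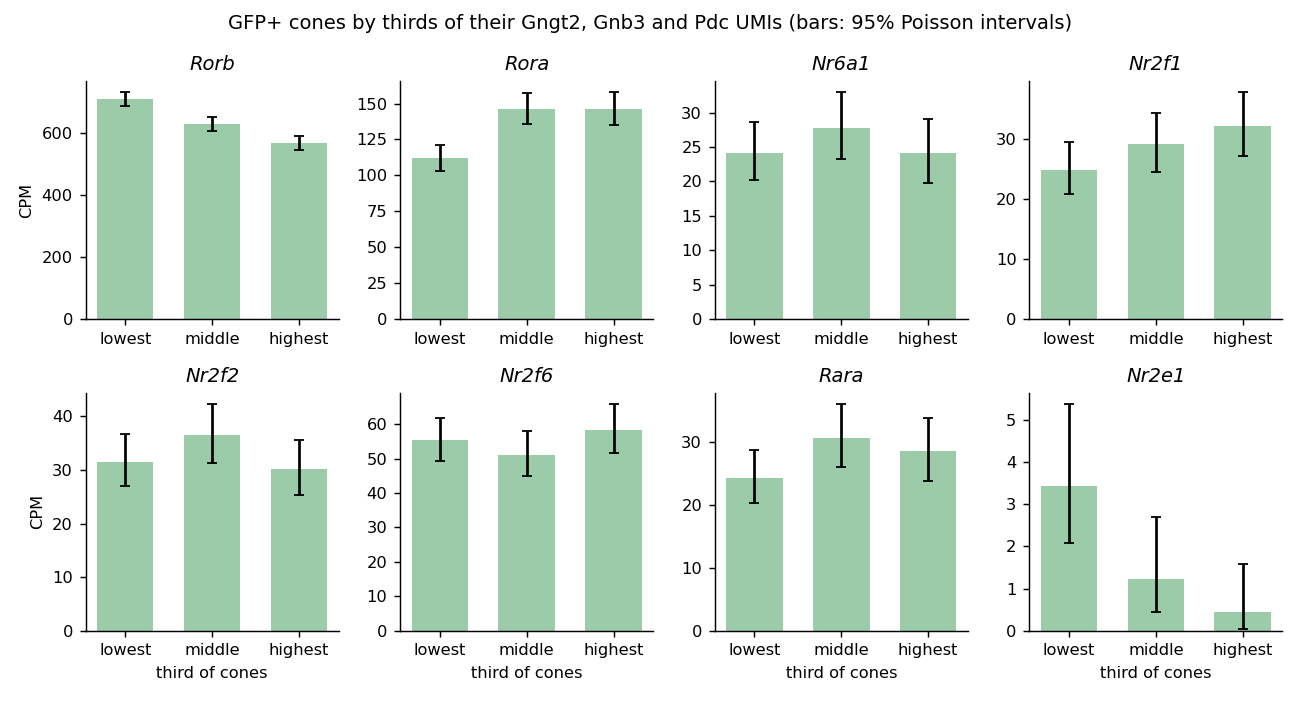
CPM of 8 members in 3 equal sets of GFP+ cones, ordered by their *Gngt2*, *Gnb3* and *Pdc* UMIs, as bars from 0 with 95% Poisson intervals. *Rorb* goes from 709 to 567 CPM and *Rora* from 112 to 146 CPM from the lowest to the highest set, while *Nr6a1* stays between 24.1 and 27.8 CPM.

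In the 790 cones with at least 2 *Fabp7* UMIs, a lipid-binding protein gene, against the 2128 with none, 0 of 8 members were called in either direction, where 1.28% and 3.45% of 11811 genes were higher and lower. *Rorb* was at 756 and 586 CPM, 1.29-fold higher (1.23 to 1.35), and *Rora* at 99.5 and 147 CPM, 1.48-fold lower (1.32 to 1.66). In the 181 cones with a *Slc7a3* UMI, an amino acid transporter, *Nr2f1* was lower and *Nr2e1* higher, where 6.5% and 4.99% of 12131 genes were. *Nr2f1* had 8 UMIs there, at 10.2 against 29.4 CPM, 2.89-fold lower (1.45 to 6.74). The *Nr2e1* call rested on 4 UMIs and its interval (0.787 to 9.16) held 1. In the 402 cones with a UMI of *Nrl*, a rod gene, *Nr2e1* alone was called higher from 6 UMIs (0.687 to 5.33) and 0 members lower, where 1.11% and 3.44% of genes were. *Rorb* was 1.16-fold higher in them (1.09 to 1.23) and *Rora* at 0.886 (0.766 to 1.02).

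Over the 9 groups, the log2 levels of *Nr2f1*, *Nr2e1*, *Nr0b1* and *Rarb* went together, with r of 0.830 to 0.958 among the 6 pairs, and those of *Rora* and *Nr6a1* with r of 0.880. *Nr2f2* and *Rara* had r of 0.808. These r are descriptions over 9 groups that share 2 libraries, after 10 CPM was added to each level. *Nr0b1* and *Rarb* were at 15.8 and 6.28 CPM in their highest group, so their r rest on levels near or below the 10 CPM added. The 3 genes most alike to each member were taken from 8068 genes at 20 CPM or more in some group. They were *Pnpla3*, *Samd11* and *C1ql3* for *Nr6a1* (r of 0.991 to 0.993), *Aff1*, *Pgm2* and *Ccdc126* for *Rora* (0.972 to 0.984) and *Mgarp*, *Wdr75* and *Ppid* for *Rorb* (0.920 to 0.975). For *Nr2f1* they were *Ptprz1*, *Nudt4* and *Kdr* (0.986 to 0.989), for *Nr2e1* *Yap1*, *Sparc* and *Ikzf4* (0.981 to 0.983), and for *Nr2f6* *Dlx2*, *Eya2* and *Gtf2f2* (0.917 to 0.951). For *Nr2f2* they were *Nckap1*, *Bcas2* and *Sec14l1* (0.917 to 0.932) and for *Rara* *Mylk*, *Zbtb5* and *N4bp1* (0.936 to 0.956). *Nr0b1* and *Rarb* did not reach 20 CPM in any group. Of the genes named as alike, *Aff1*, *Wdr75* and *Ikzf4* were near that limit, with 20.2, 22.6 and 25.1 CPM in their highest group.

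The members were set beside the genes they work with. Of 39 other nuclear receptors 19 entered between the gates, and 5 were higher and 1 lower in GFP+ cells, a share of higher genes near the 22.4% of all genes. *Thrb*, the thyroid hormone receptor of cones, was at 595 and 8.37 CPM, and *Rxrg*, a retinoid X receptor and common partner of other receptors, at 246 and 4.32 CPM. The others were below 20 CPM in both gates and are named after their values were seen, *Esrrg*, *Nr1h3* and *Ppard* as higher and *Nr4a2* as lower. The median log2 ratio of this list was 0.61, against 0.30 over all genes. All 10 retinoid genes that entered, of 13, were called, 3 higher and 7 lower, with a median log2 ratio of -2.61. *Rbp4*, which carries retinol, was at 350 against 3.82 CPM and its receptor *Stra6* at 44.9 and 7.90 CPM. The retinoic acid synthesis genes *Aldh1a1* and *Aldh1a3* were at 3.68 and 2.00 CPM in GFP+ and 42.8 and 43.1 CPM in GFP- cells, and *Cyp26a1*, which degrades retinoic acid, at 1.10 and 43.4 CPM. The binding proteins *Crabp2* and *Crabp1* were 27.0-fold and 2.05-fold lower in GFP+ cells. *Dhrs3*, higher, and *Rdh10*, lower, were below 20 CPM in both gates. *Rarb* was thus lower in the same gate as these retinoic acid genes, while *Rara* was not called, at 1.02 or 0.811 with TMM factors. In progenitors *Cyp26a1*, which was not used to place them, was 13.3-fold higher on the dorsal side (10.0 to 18.1), where *Rarb* was 2.32-fold higher.

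Of the 8 coregulators, which receptors recruit to repress or activate, 4 were higher in GFP+ cells and 0 lower. Their median log2 ratio was 0.84, and 22.4% and 15.5% of all genes were called higher and lower. TMM factors, a log2 shift of -0.33, gave 15.1% and 19.98% of all genes. The 4 coregulator calls are without that shift, and their count with it is not reported here. *Nrip1* was at 94.6 and 29.1 CPM (3.25-fold, 2.98 to 3.53) and *Ncoa1* at 34.8 and 14.54 CPM (2.40-fold, 2.11 to 2.72). *Sirt1*, also called, stayed below 20 CPM, and *Ncor1* and *Hdac3* were at 1.24-fold and 1.44-fold.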

How the data were processed

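The authors pooled retinas of 2 litters, sorted GFP+ and GFP- cells and, per the labels and the study's methods, ran Cell Ranger 2.1.1 with the mm10 reference (GRCm38), depositing UMI counts per gene and cell, not normalized. The members and gene lists were chosen with earlier results of these data known. Kept cells had 250 to 3500 genes and less than 0.25 of their UMIs from mitochondrial genes. A cell met the cone (*Gngt2*, *Gnb3*, *Pdc*, *Thrb*, *Rxrg*), RGC (*Nefl*, *Nefm*, *Sncg*, *Rbpms*), AC/HC (*Tfap2a*, *Tfap2b*, *Ptf1a*), RPC (*Sfrp2*, *Hes1* and *Ccnd1* among others) or mitotic rule (*Top2a*, *Ccnb1*, *Cenpf*, *Cenpe*, *Ube2c*) with at least 3 UMIs from at least 2 genes of the list. RGC precursors had at least 2 *Pou4f2* UMIs, *Otx2*/*Crx* cells at least 1 UMI of each, and neurogenic cells at least 2 UMIs summed over *Neurog2*, *Olig2* and *Atoh7*. Terminal rules came first, and groups under 50 cells were not described alone.

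UMIs were summed over cells and given as CPM. Intervals (95%) were exact Poisson for CPM, Clopper-Pearson for shares and exact conditional for ratios. They cover counting error only, and a count of 0 is also set against 3 counts, which lie below the upper end of its interval. The scripts were tested on simulated data. Totals over all deposited cells were 16010591 UMIs for GFP+ and 46778924 for GFP- cells. The CPM of a gate were taken over its kept cells, with 15503658 and 30122113 UMIs. Named are the members, listed genes past 2-fold between the gates with at least 20 CPM in either, and for each member the 3 genes with the highest Pearson correlation of log2(CPM + 10) over the groups. Scrublet in scanpy 1.11.5 (expected rate 0.03) marked 3 of 3728 GFP+ and 55 of 4445 GFP- cells, 2 of them among kept cells, and these were left in. The alternatives were no limit on genes, doublets left out, means of per-cell values, thinned cells, TMM factors (edgeR 4.0.16), division by the median ratio, no UMI minimum, a 1.5-fold rule, 5 marker UMIs, and *Tbx5* against *Vax2* alone. RGCs without cells of the RPC rule, AC/HCs with cells of the RGC rule, and RPCs without neurogenic cells were added after seeing the data. Python 3.11.15, numpy 2.4.6, pandas 2.3.3, scipy 1.17.1 and matplotlib 3.10.9 were used. No amino acid sequence is printed, and some listed genes are not reported here.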

Additional observations from a re-analysis of the deposited data

How the results depend on the processing

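Over the alternatives 0 of 626 recomputed member ratios reversed a call, 559 stayed within the counting interval of the reported ratio and 67 moved out of it. Of the 559, 97 came from leaving out doublets, which removed only 2 kept cells and so could hardly move a ratio. The settings differed in this. *Tbx5* against *Vax2* alone moved 9 dorsal over ventral ratios and left 7, and TMM factors moved 6 and left 4. RGCs without cells of the RPC rule moved 4 and left 6. Thinned cells moved 17 and left 80, and means of per-cell values moved 3 and left 94. The count of members called moved by over 1.5 times in the following cases. The shares of all genes called under these other rules are not reported here, so the counts are not read as results about the members. A 1.5-fold rule gave 7 in place of 4 in neurogenic cells, 4 in place of 2 between dorsal and ventral progenitors and 1 in place of 0 in *Fabp7* cones. Without the limit on genes, 1 was called in dorsal progenitors, 1 in *Slc7a3* cones in place of 2 and 0 in *Nrl* cones in place of 1. Without a UMI minimum, 3 were called between dorsal and ventral cones in place of 1, 4 in *Slc7a3* cones and 2 in *Nrl* cones. Thinned cells gave 1 in *Slc7a3* and 0 in *Nrl* cones, 5 marker UMIs 1 in *Slc7a3* cones, and means of per-cell values 0 in *Nrl* cones. The cause was not tested. Between single members, thinning ended the calls of *Rarb* in neurogenic cells (0.540) and RGCs (0.638) and of *Nr2f2* in AC/HCs (1.95), and brought calls of *Rora* (0.459) and *Rara* (0.468) in RGCs and of *Nr0b1* in dorsal progenitors (0.472). The calls of *Nr2e1* and *Nr2f1* in *Slc7a3* and *Nrl* cones rested on 4 to 8 UMIs. No paired analysis was possible because each gate is 1 library and the labels carry no replicate numbers. Doublet calls were few, so doublets remain largely unmarked.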
